A study of Arabidopsis thaliana with 2 samples.

Results

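The genes of the ribosomal proteins of Arabidopsis thaliana were examined for cytosine methylation in plants that lack IBM1. A nuclear protein-coding gene was taken when its TAIR10 description held the words ribosomal protein, without kinase, methyltransferase or acetyltransferase, and when at least 10 of its CpHpG cytosines were covered with a mean of at least 4 reads in the Col-0 library (H stands for A, C or T). Of 343 genes with such a description, 331 passed, out of 26445 passing genes in the nuclear genome. They were sorted by description into 108 genes of the large subunit of the cytosolic ribosome, 82 of its small subunit, 102 of plastid or mitochondrial ribosomes and 39 that only carry a domain named after a ribosomal protein, such as GTPases of the elongation factor G type. The last class is therefore ribosomal by name alone.

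Ribosomes are built from rRNA and from proteins of a large and a small subunit, and plants keep most cytosolic ribosomal proteins as several gene copies on different chromosomes. Plastid and mitochondrial ribosomes have their own proteins, many encoded in the nucleus. IBM1 is a histone demethylase that removes H3K9 methylation from transcribed genes, and the CpHpG methyltransferase CMT3 is recruited by that mark, so that genes of ibm1 mutants gain CpHpG methylation.

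The study asked where this non-CpG methylation arises and what part methylated CpCpG sites play in it. There were 2 whole-genome bisulfite libraries, 1 from ibm1-1 Ler-0 and 1 from ibm1-1 Col-0, both made from rosette leaves of homozygous mutants in their first generation, aged 3 weeks. The Ler-0 line came from the Col-0 mutant, backcrossed repeatedly to Ler-0, and both groups carry the same mutation, so no plant with functional IBM1 enters the comparison. With 1 library per ecotype and no replicate, no ecotype difference could be tested. The exact tests given here compare the libraries only, and intervals (95%, Wilson) cover counting error only, as PCR copies without molecular identifiers are not independent molecules. Calls at several cytosines of the same read are not independent either, so the exact p-values may be too small and the intervals too narrow. Each level is the share of methylated calls over all leaf cells, so cells of different types cannot be told apart, and the calls hold no expression by which the leaf label could be checked.

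Cytosines had on average 6.58 calls in the Ler-0 library and 8.63 in the Col-0 library, with 77.1% and 84.8% of cytosines covered in those libraries. The ribosomal protein genes were read 6.55 times per CpHpG cytosine in Ler-0 at the median and 8.10 times in Col-0, against 7.27 and 8.70 for all genes. Unconverted calls on the chloroplast, which is not methylated, made up 2.34% of CpHpG calls in Ler-0 and 2.25% in Col-0, and 1.40% and 1.42% of CpG calls, so CpHpG levels near 2% lie at this background. Ler-0 levels were read only where 500-bp tiles of Col-0 aligned once to the sequence rebuilt from the Ler-0 report. They were obtained for 315 of the 331 genes, and 3 genes had no placed tile at all. On chromosome 3, from 0.25 to 9 Mb around IBM1, the reads of the Ler-0 library lacked most of the cytosines specific to the Ler-0 genome. Of these cytosines, 11.2% had a read there, against 80.3% in the rest of the nuclear chromosomes. The stretch holds 43 of the ribosomal protein genes, and 7 of 32 such cytosines in them had a read (21.9%). Ler-0 values of these genes thus describe mostly Col-0 sequence.

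Sites from genes that lead the results are shown first, because the study turned on CpCpG sites. In these, the internal cytosine is in CpG context and the external one in CpHpG context. The sequences are from TAIR10, 5′ to 3′ on the strand given, with the CpCpG trinucleotide in capitals. Each is the most deeply read site of its gene with an internal level of at least 50% in either library, so that the internal level is a description, and the genes were picked after their values were seen.
AT3G10950, RPL37a copy, chr3:3424414-3424436, plus strand, coding exon: atgcagtactCCGttaagaggaa
AT5G30510, plastid RPS1, chr5:11619867-11619889, minus strand, coding exon: tgagtcacgaCCGtgacagagga
AT3G44890, plastid RPL9, chr3:16387493-16387515, plus strand, coding exon: gtattccaaaCCGttggtgcttt
AT3G44010, RPS29 copy, chr3:15800285-15800307, minus strand, coding exon: gacagtgtttCCGtagcaacgct
AT4G17560, plastid protein of the L19 family, chr4:9781557-9781579, minus strand, intron: aagaaaataaCCGatatatcaca
AT1G33850, RPS15-like, chr1:12288070-12288092, minus strand, coding exon: atttcagttcCCGtattcgcaga
AT5G43640, RPS15 copy, chr5:17531311-17531333, minus strand, coding exon: acaattccagCCGcaacaacctc
AT5G11750, organellar protein of the L19 family, chr5:3788154-3788176, plus strand, coding exon: ttttctactaCCGgagattctgt

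The sites differed in whether the external cytosine was methylated beside the internal one. At the RPL37a site the internal cytosine was methylated at 97.9% of 48 reads in Ler-0 and 96.9% of 64 reads in Col-0, and the external one at 64.6% and 79.7%. The RPS1 site was of the same kind, where the internal cytosine reached 93.6% in Ler-0 against 98.8% in Col-0, and the external one 75% and 92.6%. At the RPL9 site, by contrast, the internal cytosine reached 95% in Ler-0 and 90.5% in Col-0 while the external one had 5.26% and 0%. The RPS29 site was also methylated at the internal cytosine alone, at 96.4% in Ler-0 and 73.3% in Col-0, with 3.57% and 0% at the external one. The sites in AT4G17560, AT1G33850 and AT5G43640 had a methylated internal cytosine in the Ler-0 library (100%, 100% and 83.3% of 10 to 12 reads) and at 0% in Col-0. Their external cytosines were at 27.3%, 10% and 8.33% in Ler-0 and at 0% in Col-0. The AT5G11750 site went the other way, with 0% of 14 reads in Ler-0 and 91.7% of 12 reads in Col-0. Its external cytosine was at 0% in Ler-0 and 8.33% in Col-0.

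Few ribosomal protein genes were methylated in their bodies. The study set a limit of 10% CpG, together with low non-CpG methylation, on short tiles of wild-type plants, and here 10% CpG was applied to whole genes of the mutants with no further condition. A CpG level of at least 10% was found in 69 of 315 genes in Ler-0 (21.9%, interval 17.7 to 26.8%), against 43.6% of all genes. In Col-0 it was found in 63 of 331 (19%, interval 15.2 to 23.6%), against 45.3% of all genes. The median CpG level of the ribosomal protein genes was 1.67% in Ler-0 and 1.75% in Col-0, while that of all genes was 5.69% and 7.05%.

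Non-CpG methylation was rarer still. A CpHpG level of at least 5% was reached by 38 of 315 genes in Ler-0 (12.1%), against 32.0% of all genes, and by 22 of 331 in Col-0 (6.65%), against 27.3%. The shares moved with depth. Among genes with a mean of at least 8 reads, it was 16 of 54 in Ler-0 (29.6%, interval 19.1 to 42.8%), against 58.1% of all genes at that depth, and 15 of 171 in Col-0 (8.77%), against 37.1%. At 10% CpHpG, 26 genes remained in Ler-0 (8.25%, against 23.1% of all genes) and 12 in Col-0 (3.63%, against 18.9%). At 50% there were 4 genes in Ler-0 (1.27%, interval 0.495 to 3.22%, against 1.66%) and 1 in Col-0 (0.302%, interval 0.0534 to 1.69%, against 0.983%). These counts are too small to set the shares apart from those of all genes or to call them alike. CpHpH methylation of at least 5% was found in 4 genes in Ler-0 (1.27%, against 4.27%) and 5 in Col-0 (1.51%, against 4.57%).

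The classes differed in the share that passed these limits, though each stood below the share of all genes. That share was 43.6% in Ler-0 and 45.3% in Col-0 for CpG. For CpHpG of at least 5% it was 32.0% and 27.3%. In the organellar class, 31 of 95 genes had at least 10% CpG methylation in Ler-0 (32.6%) and 31 of 102 in Col-0 (30.4%). In the cytosolic large subunit these were 17 genes in Ler-0 (16.8%) and 13 of 108 in Col-0 (12%), and in the small subunit 13 of 80 (16.2%) and 9 of 82 (11%). The organellar proteins also led in CpHpG methylation of at least 5%, with 19 genes in Ler-0 (20%) and 12 in Col-0 (11.8%). In the large subunit there were 5 such genes in Ler-0 (4.95%) and 5 in Col-0 (4.63%), and in the small subunit 7 in Ler-0 (8.75%) but only 1 in Col-0, RPS28. Genes with only the domain name were intermediate at this limit, with 7 of 39 in Ler-0 (17.9%) and 4 of 39 in Col-0 (10.3%). At a limit of 10% CpHpG they had the highest share of the classes. It was 17.9% in Ler-0, against 12.6% of organellar genes and 23.1% of all genes. In Col-0 it was 7.69%, against 4.90% and 18.9%. Classes were not tested against each other, and their intervals overlap in part.

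**Figure D1:**
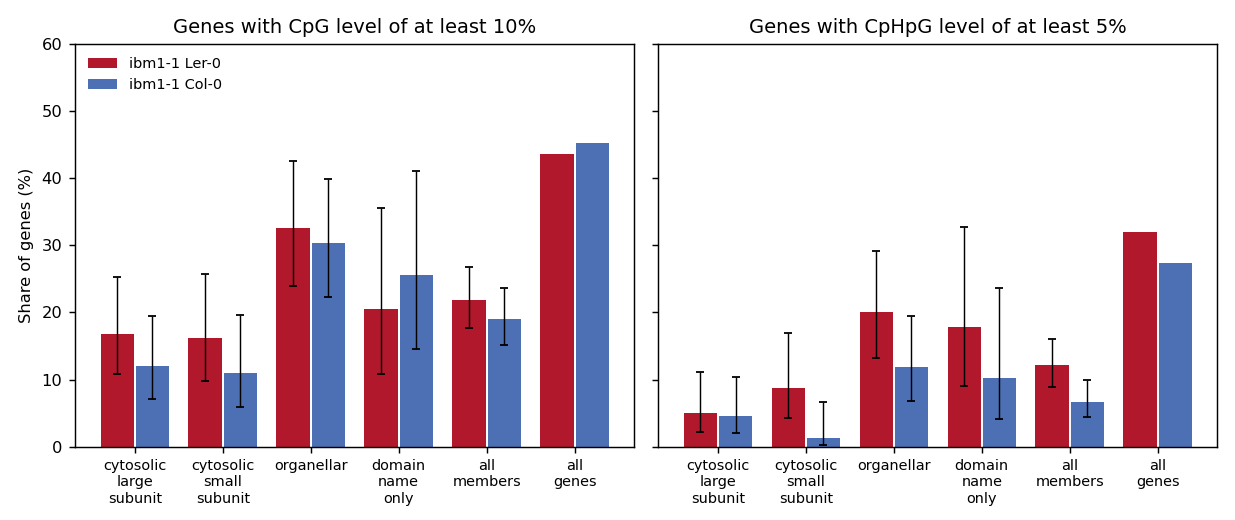
Bars give the share of genes (%) with a CpG level of at least 10% (left) or a CpHpG level of at least 5% (right) in ibm1-1 Ler-0 (red) and ibm1-1 Col-0 (blue), by class of ribosomal protein gene, for all members and for all nuclear protein-coding genes, with 95% Wilson intervals for the ribosomal classes. The ribosomal protein genes as a whole stood at 12.1% and 6.65% for CpHpG, against 32.0% and 27.3% of all genes.

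Gene length moved with these shares. The ribosomal protein genes had a median length of 1565 bp, against 2117 bp for all genes, and the longer of them were more often methylated. In Col-0, 2 of 41 ribosomal protein genes under 1 kb had at least 10% CpG methylation (4.88%, against 24.4% of all genes of that length), and 28 of 230 from 1 to under 2 kb (12.2%, against 24.4%). From 2 to under 3 kb it was 26 of 50 (52%, against 50.7%), and at 3 kb or more 7 of 10 (70%, against 76.2%). Over all classes together, the lower share was thus seen in genes under 2 kb, but the classes differed. From 1 to under 2 kb it was 22.2% in organellar genes, 8% in the large subunit, 10% in the small subunit and 4.55% in genes with only the domain name. From 2 to under 3 kb it was 14 of 21 organellar genes (66.7%) and 7 of 11 with only the domain name (63.6%). In the large subunit it was 4 of 14 there (28.6%), and in the small subunit 1 of 4 (25%). These numbers are small and were not tested. CpHpG methylation in Ler-0 also rose with length over all classes together. From the shortest to the longest genes, 5.56%, 6.85%, 28% and 70% of the ribosomal protein genes were at 5% or more. The shares of all genes were 18.4%, 11.9%, 28.5% and 65.2%. In Col-0 these shares were 4.88%, 2.61%, 20% and 40%, against 20.3%, 11.2%, 23.0% and 54.9%.

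Among genes that did carry CpG methylation, a part also had CpHpG methylation. Of the 69 such genes in Ler-0, 36 had at least 5% CpHpG (52.2%, interval 40.6 to 63.5%), against 68.5% of all genes with CpG methylation. In Col-0 it was 19 of 63 (30.2%, interval 20.2 to 42.4%), against 57.6%. The shares moved with the CpG level. With 10 to under 30% CpG, 12 of 41 genes passed in Ler-0 (29.3%, against 39.7% of all genes). In Col-0, 7 of 43 passed (16.3%, against 27.2%). With 30 to under 60% CpG, 18 of 22 genes passed in Ler-0 (81.8%, against 87.4% of all genes) and 8 of 16 in Col-0 (50%, against 78.4%). With 60% or more, 6 of 6 passed in Ler-0 and 4 of 4 in Col-0, against 99.6% and 98.2% of all genes.

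**Figure D2:**
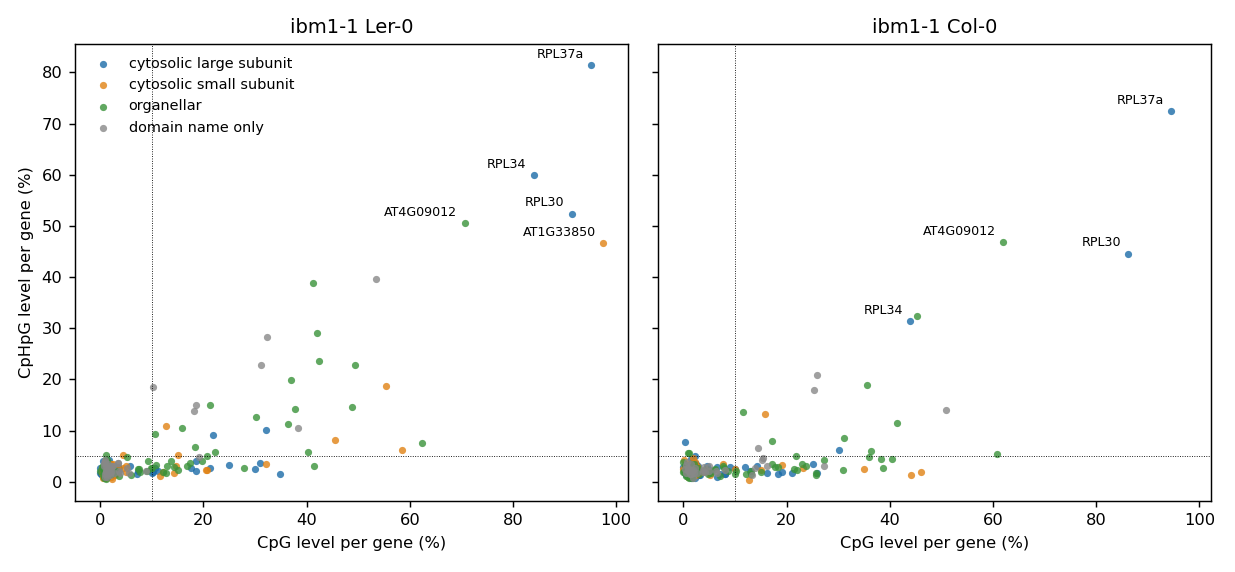
Each point is a ribosomal protein gene, with its CpG level (%) on the x axis and its CpHpG level (%) on the y axis, in ibm1-1 Ler-0 (left) and ibm1-1 Col-0 (right), coloured by class, and dotted lines mark the limits of 10% CpG and 5% CpHpG. Most genes lie near the origin, and the RPL37a copy AT3G10950 stands at 81.5% CpHpG in Ler-0 and 72.5% in Col-0.

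In several cytosolic families, a single copy was strongly methylated. AT3G10950 (chr3:3423893-3424566, plus strand, 674 bp) encodes a copy of RPL37a, a zinc-binding protein of the large subunit. Its CpG level was 95.1% in Ler-0 (93.0 to 96.6%) and 94.5% in Col-0 (92.6 to 96.0%), its CpHpG level 81.5% (79.3 to 83.6%) and 72.5% (70.0 to 74.8%), and its CpHpH level 19% and 20.1%, at 22.6 and 23.9 reads per CpHpG cytosine. The gene was methylated over its whole length, since in 5 equal parts from start to end, numbered 1 to 5, CpG methylation reached 91.5% or more in Ler-0 and 92.6% or more in Col-0 wherever there were CpG calls. It lies in the chromosome 3 stretch. The other RPL37a copy, AT3G60245, is 80.6% identical over 279 coding bases and was at background, with 1.01% CpG and 1.31% CpHpG in Ler-0 and 1.43% and 1.67% in Col-0.

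RPL30, another protein of the large subunit, had the same arrangement. AT1G36240 (chr1:13614890-13616233, plus strand) had 91.4% CpG (86.5 to 94.6%), 52.4% CpHpG (49.2 to 55.6%) and 12.2% CpHpH in Ler-0, and 86.2% (81.4 to 89.8%), 44.6% (41.8 to 47.4%) and 9.27% in Col-0. The copy AT3G18740, with 89.1% identity in the coding sequence, had 1.49% CpG in Ler-0 and 0.704% in Col-0, and AT1G77940, at 81.7% identity, had 1.63% in Col-0 and no Ler-0 level. Only one of the copies was thus methylated, although they share CpCpG sites. The sequences below, one pair at the same place of the alignment, have the site in capitals.
AT1G36240, chr1:13616052-13616074, minus strand: gaagtatttaCCGcaggcagtac
AT1G77940, chr1:29304275-29304297, plus strand: gaagtactttCCGcaagctgttc
In Col-0 the internal cytosine was methylated at 75% of 8 reads in AT1G36240 and at 0% of 16 reads in AT1G77940. In Ler-0, AT1G77940 had no calls in placed tiles, so its level could not be read, and AT1G36240 had 83.3% of 6 reads.

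RPL34, which also belongs to the large subunit, differed in where the methylation lay. AT3G28900 (chr3:10902003-10904458, minus strand) had 84% CpG and 59.9% CpHpG in Ler-0 and 44.0% and 31.4% in Col-0, but only 913 of its 2456 bp could be placed in Ler-0. At CpHpG cytosines shared by the libraries the levels were closer, at 55.9% in Ler-0 and 48.4% in Col-0. Its coding sequence had little methylation, with 0% CpG in Ler-0 and 3.61% in Col-0, whereas the untranslated exons had 94.4% and 60.8%. Part 5 of the gene carried 94.4% CpG and 74.2% CpHpG in Ler-0 and 68.7% and 56.3% in Col-0. Both other copies, AT1G26880 and AT1G69620, were at background with 1.18% and 1.38% CpG in Ler-0 and 0.441% and 1.48% in Col-0. AT3G28900 also overlaps the annotated gene AT3G28899, so the calls cannot be assigned to one of them. Of the 331 ribosomal protein genes, 95 overlap another annotated gene, and this limit holds for them too.

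Across the 64 cytosolic families with 2 or more genes, no family had every copy at 10% CpG or more in either library. At least 1 such copy was found in 22 families in Ler-0 and 17 in Col-0, and exactly 1 in 16 and 13 of them. These counts stand beside shares of 16.8% and 12% of large subunit genes and 16.2% and 11% of small subunit genes at this level, and other gene families were not counted. RPS29, a zinc-binding protein of the small subunit, is an example without strong CpHpG methylation. Its copy AT3G44010 had 58.4% CpG in Ler-0 and 44.2% in Col-0 but 6.27% and 1.25% CpHpG, and the other copies, AT3G43980 and AT4G33865, had 2.92% and 4.33% CpG in Ler-0 and 1.59% and 1.06% in Col-0.

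**Figure D3:**
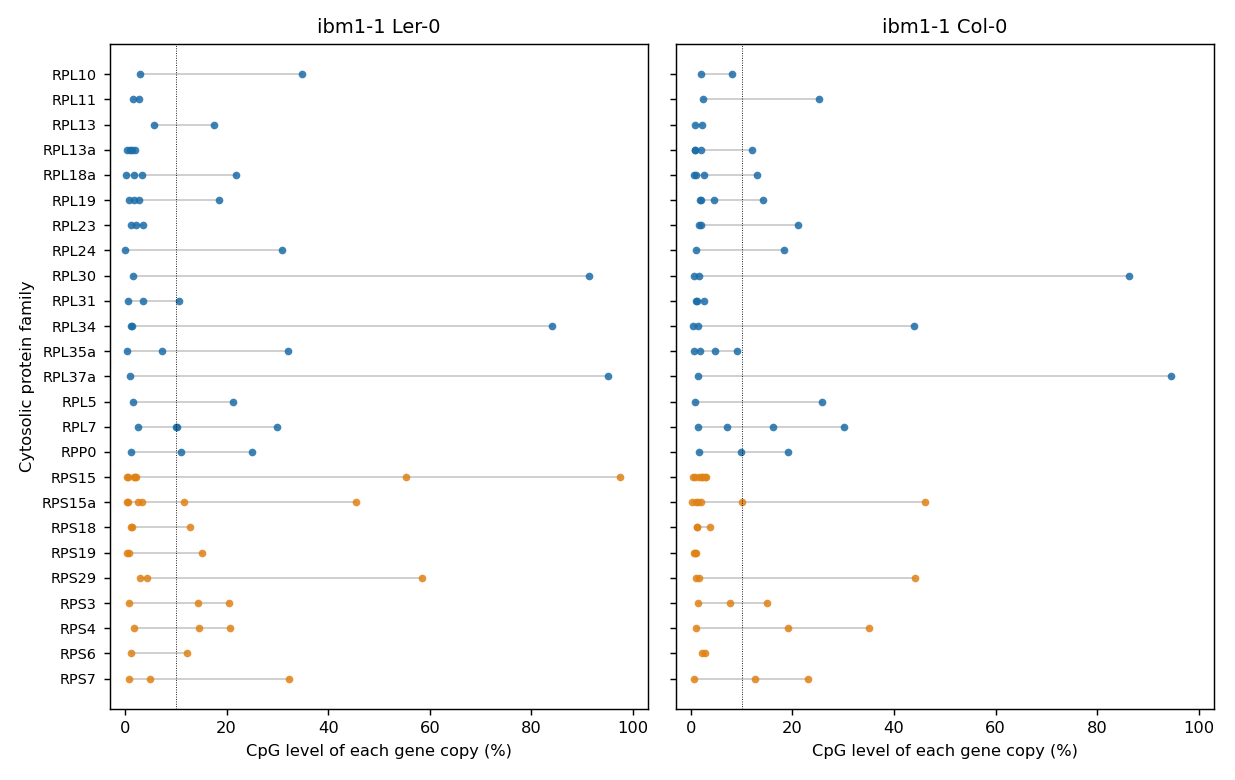
Each point is one gene copy, placed by its CpG level (%) in ibm1-1 Ler-0 (left) and ibm1-1 Col-0 (right), with the copies of a family joined by a line, for the 25 cytosolic families drawn because a copy reached 10% in a library (blue, large subunit, and orange, small subunit). The rows differ in how far the highest copy lies to the right. RPL37a has 95.1% and 94.5% against 1.01% and 1.43% in its other copy, while the highest copy of RPL31 has 10.7% and 2.56%. The dotted line marks 10%.

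The organellar genes with the highest levels followed several patterns. AT4G09012 (chr4:5780311-5783464, minus strand), annotated as mitochondrial L27, had 70.6% CpG and 50.5% CpHpG in Ler-0 and 62.0% and 46.8% in Col-0, with 8.60% and 7.95% CpHpH. Its methylation lay at the start, where part 1 had 94.9% CpG and 78.9% CpHpG in Ler-0 and 92.5% and 72.1% in Col-0, and parts 3, 4 and 5 had 6.67% CpG or less in Ler-0 and 1.85% or less in Col-0. AT5G30510 encodes plastid RPS1, which takes part in the start of translation. It had 42.3% CpG and 23.5% CpHpG in Ler-0 and 45.2% and 32.3% in Col-0, with CpHpH at 1.45% and 1.39%, near the background. The methylation of RPS1 was concentrated in part 4 of the gene, at 80.3% CpG and 36.2% CpHpG in Ler-0 and 88.1% and 56.2% in Col-0. Plastid RPL9 (AT3G44890) had a higher CpG level than RPS1, 62.4% in Ler-0 and 60.7% in Col-0, yet only 7.51% and 5.41% CpHpG, so a high CpG level was not always matched by CpHpG methylation.

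CpHpH methylation of at least 5% was found in RPL37a, RPL30, RPL34 and AT4G09012 in both libraries and in RPS28 (AT5G64140) in Col-0 only. In the other named genes it did not exceed 4.83%, the level of AT1G33850 in Ler-0.

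Around the limits that were used, the genes on each side were close. AT4G17560 had 5% CpHpG in Col-0 and AT3G44890 5.41%, just inside the limit, while AT4G21460 with 4.80% and AT2G20450 with 4.96% were just outside. For read depth, AT5G39800 (4.21 reads per CpHpG cytosine) and AT4G22380 (4.33) were just inside in Col-0, and AT5G40080 (3.95) and AT5G02440 (3.56) just outside. Among the 12 genes that failed were AT1G33120 and AT1G33140, of the 3 cytosolic RPL9 genes, with 2 and 1.76 reads. The RPS2 copies AT1G58684, AT1G58983 and AT1G59359 had 0 reads in Col-0, but 5.97 to 6.56 in Ler-0. Whether reads were shared between near-identical copies was not tested, and levels of such copies are uncertain in either library.

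The position of methylation within the gene was similar in both libraries. From part 1 to part 5, pooled CpG levels of the ribosomal protein genes were 2.65%, 4.4%, 14.5%, 21.0% and 14.1% in Ler-0 and 2.59%, 3.46%, 13.3%, 17.3% and 13% in Col-0. In the 63 genes with CpG methylation in Col-0, part 4 was the highest in 27, part 3 in 24 and part 1 in 3. CpHpG methylation was highest in part 3 in both libraries, at 9.11% in Ler-0 and 5.04% in Col-0, against 3.49% and 3.33% in part 1. The 22 cytosolic genes with CpG methylation in Col-0, pooled, had their highest CpHpG in part 5, at 30.4% in Ler-0 and 21.4% in Col-0. This was against 13.7% and 8.32% in part 3 and 13.4% and 13% in part 1. Most methylated CpHpG calls of that part 5 came from the copies of RPL34, RPL37a and RPL30 named above. The other cytosolic genes need not follow this order. In the 31 organellar genes with CpG methylation, CpHpG was 17.6% in Ler-0 and 11.6% in Col-0 in part 3, against 5.11% and 2.82% in part 5. By annotation, coding sequence had 11.5% CpG in Ler-0 and 10.3% in Col-0, introns 9.65% and 6.80%, and untranslated regions 4.27% and 4.52%. Pooled CpG methylation therefore lay mostly in the middle and later parts, whereas RPS28, AT4G09012 and AT5G43640 carried theirs in part 1 and RPL37a over its whole length.

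**Figure D4:**
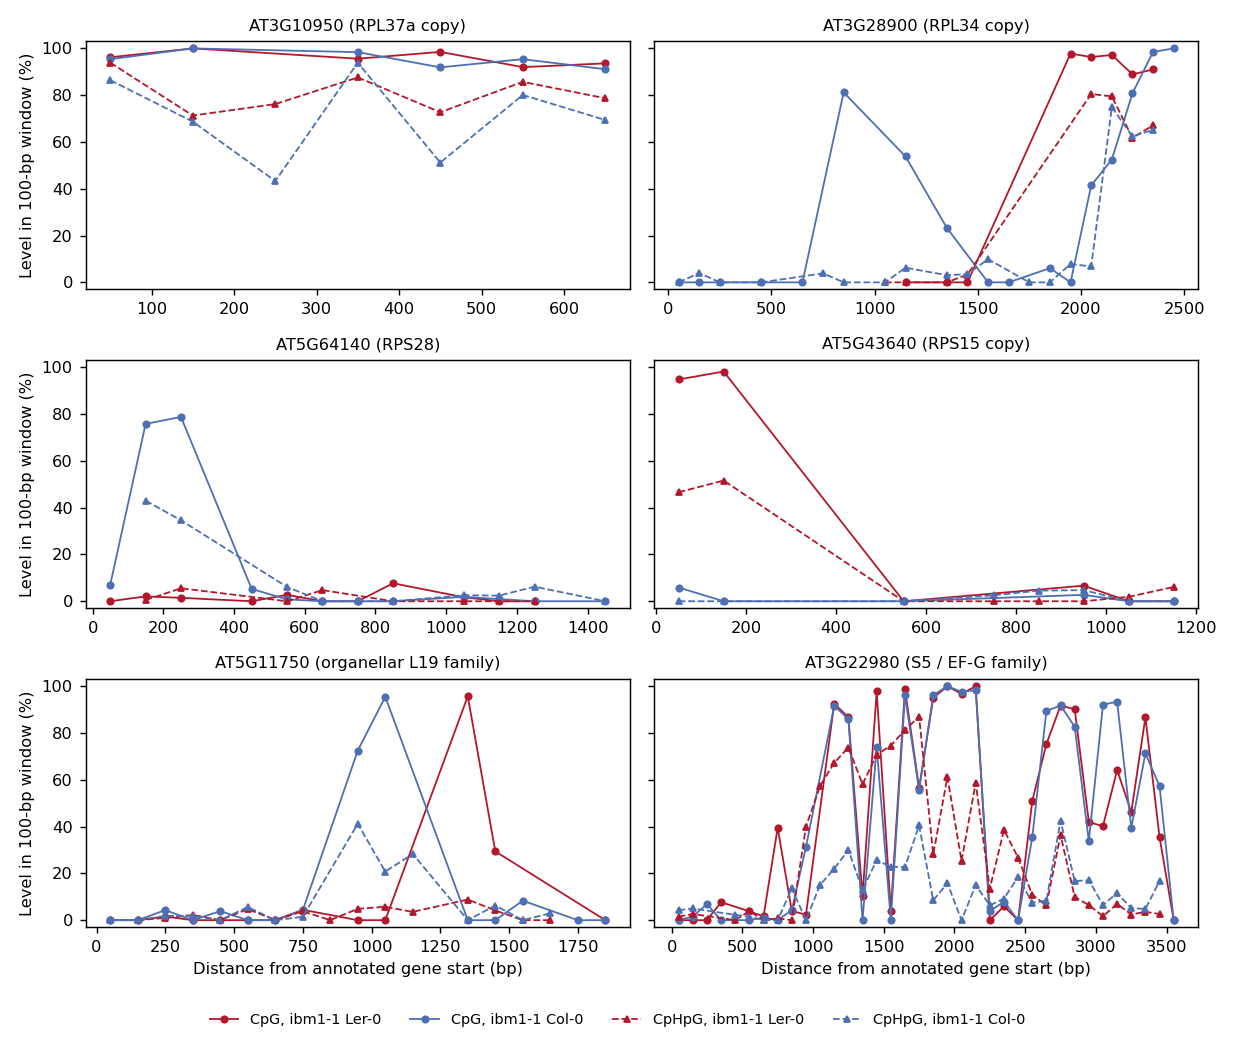
Lines give CpG (solid, circles) and CpHpG (dashed, triangles) levels (%) in 100-bp windows with at least 10 calls, against the distance from the annotated start of the gene (bp), in ibm1-1 Ler-0 (red) and ibm1-1 Col-0 (blue) for 6 genes. RPL37a is methylated over its length, RPL34 at its end, RPS28 near its start in Col-0 alone and AT5G43640 at its start in Ler-0 alone, and in AT5G11750 the CpG peaks of the libraries lie apart.

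Within CpHpG, the 3 trinucleotides differed. In the 63 genes with CpG methylation in Col-0, CpApG cytosines were at 18.1% in Ler-0 and 10.6% in Col-0, CpTpG at 15.2% and 9.56%, and CpCpG at 9.21% and 7.52%. CpCpG sites with at least 5 reads at both cytosines were then sorted by an internal level of at least 50% and an external level of at least 25%. Both cytosines were methylated at 59 of 2635 sites in Ler-0 (2.24%, interval 1.74 to 2.88%) and at 53 of 3127 in Col-0 (1.69%, interval 1.30 to 2.21%), against 9.39% and 8.12% in all genes. Only the internal cytosine was methylated at 6.07% of sites in Ler-0 and 6.08% in Col-0, against 13.2% and 14.5%. Where the internal cytosine was methylated, the external one was as well at 59 of 219 sites in Ler-0 (26.9%, interval 21.5 to 33.2%) and 53 of 243 in Col-0 (21.8%, interval 17.1 to 27.4%), against 41.6% and 35.9% in all genes. The classes were not alike in this share, which was 44.4% in Ler-0 and 35.7% in Col-0 for the cytosolic large subunit, 4.35% and 5.88% for the small subunit (1 site each) and 20% and 16.8% for the organellar genes. Sites of one gene are not independent, and the shares were not tested. Of the 2351 sites read in both libraries, 23 had both cytosines methylated in both (0.978%, against 5.29% of such sites in all genes), and 85 only the internal one in both (3.62%, against 8.14%).

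Between the libraries, most ribosomal protein genes differed little in CpHpG. Over cytosines of the same context in both genomes, the median difference (Ler-0 minus Col-0) was 0.213 points in the 315 genes compared, against 0.278 in all 24992 genes. It was above 0 in 183 of the 315 (58.1%), against 58.4%. A difference of at least 10 points with an adjusted p under 0.05 (two-sided Fisher's exact test, adjusted by Benjamini-Hochberg over all genes compared) was found in 14 genes with more CpHpG methylation in Ler-0 (4.44%, against 9.90% of all genes), and in 3 with less (0.952%, against 2.88%). With at least 8 reads in both libraries there were 9 of 56 with more (16.1%, interval 8.69 to 27.8%), against 22.3% of all genes at that depth, and 0 with less, against 3.84%. The 14 consist of 6 organellar genes, 4 with the domain name only and 4 cytosolic genes.

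Of the cytosolic genes, the largest difference was in AT1G33850 (chr1:12287913-12288210, minus strand), a short gene of 298 bp related to RPS15, a protein of the small subunit. Its CpG level was 97.4% in Ler-0 (93.5 to 99.0%) and 2.79% in Col-0 (1.20 to 6.37%), and its CpHpG level 46.7% (37.4 to 56.2%) and 1.60% (0.440 to 5.65%), over 18 CpHpG cytosines (adjusted exact p = 3.3e-17). RPS15 copy AT5G43640 (chr5:17531302-17532499, plus strand) had 55.4% CpG in Ler-0 and 2.19% in Col-0, and 18.4% and 2.08% CpHpG at shared cytosines (adjusted exact p = 8.1e-16). In its part 1 CpG reached 95.9% in Ler-0 and 3.92% in Col-0, and CpHpG 48.4% and 0%. These genes are 96.2% identical over 211 coding bases, so their reads may be shared and the values are uncertain. The other 5 RPS15 copies had 2.12% CpG or less in Ler-0 and 2.93% or less in Col-0. RPL30 (AT1G36240) and RPL37a (AT3G10950) differed by 12.7 and 10.8 points at shared cytosines (adjusted exact p = 1.7e-06 and 5.6e-10), from already high levels.

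The organellar gene AT3G49080 (chr3:18194154-18196784, minus strand), whose protein has an S5 domain, had 39.3% CpHpG in Ler-0 and 8.62% in Col-0 at shared cytosines (30.6 points, adjusted exact p = 1.6e-80). Its CpG levels were nearer each other, at 41.3% in Ler-0 and 31.1% in Col-0. In AT4G17560, of the plastid L19 family, CpHpG was 29.0% in Ler-0 against 5% in Col-0 (24.0 points, adjusted exact p = 3.2e-54), and CpG 42.1% and 21.8%. The libraries differed most in part 4 of this gene, with 82.0% CpG and 44.1% CpHpG in Ler-0 and 16.2% and 2.23% in Col-0, whereas part 3 had 73.9% and 77.7% CpG. AT4G21460, of the S24/S35 family, had 37.0% CpG in Ler-0 and 36.0% in Col-0 over the whole gene, with 19.9% and 4.80% CpHpG (adjusted exact p = 2.6e-37). The CpG methylation of AT4G21460 lay at different places, as part 4 had 89.9% CpG in Ler-0 and 45.1% in Col-0 and part 5 had 27.5% and 68.1%. CpHpG methylation was 35.7% in Ler-0 and 6.98% in Col-0 in part 4, and 2.72% and 3.59% in part 5.

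AT3G22980, a GTPase of the elongation factor G type with the domain name only, had 53.4% CpG in Ler-0 and 50.9% in Col-0 over the whole gene, while CpHpG at shared cytosines was 39.7% and 13.7% (26.0 points, adjusted exact p = 1.2e-134). In part 3 its CpG levels were 82.9% in Ler-0 and 80.3% in Col-0, with 61.7% and 18.6% CpHpG, and in part 5 they were 47.5% and 56.3%, with 3.81% and 8.32% CpHpG. It lies in the chromosome 3 stretch, where the sequence is mostly Col-0 in both libraries. AT1G06220 (MEE5), a related GTPase, had 27.8% CpHpG in Ler-0 and 16.8% in Col-0 at shared cytosines (11 points, adjusted exact p = 6.0e-37). AT3G46210, which also carries only the domain name, did not pass, with 23.8% and 21.0% (adjusted exact p = 0.202).

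Less CpHpG methylation in Ler-0 was found in AT1G16870, AT5G64140 and AT5G11750. AT1G16870, annotated as similar to mitochondrial S29, had 5.87% CpHpG in Ler-0 and 19% in Col-0 (a difference of -13.1 points, adjusted exact p = 1.5e-31), with 22.2% and 35.6% CpG. RPS28 (AT5G64140, chr5:25667324-25668777, minus strand), a protein of the small subunit, had 0.748% CpHpG in Ler-0 and 13.3% in Col-0 (adjusted exact p = 3.8e-18), with 1.19% and 15.8% CpG and 1.12% and 9.03% CpHpH. Its part 1 had 1.5% CpG, 1.30% CpHpG and 1.49% CpHpH in Ler-0, and 71.9%, 38.8% and 14.7% in Col-0, so that all contexts were methylated in Col-0 alone. This gene overlaps AT5G64150, and its untranslated region carried the methylation (1.67% CpG in Ler-0 and 48.7% in Col-0), while its coding sequence had 0.518% in Ler-0 and 0.893% in Col-0.

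AT5G11750, an organellar gene of the L19 family, had like CpG levels over the gene, 13% in Ler-0 and 11.5% in Col-0, but at different places. Its part 3 had 0% CpG in Ler-0 and 80.7% in Col-0, and its part 4 had 62.9% in Ler-0 and 0.662% in Col-0. CpHpG methylation in part 3 was 4.08% in Ler-0 and 34.1% in Col-0, and over the whole gene 3.11% and 13.7% at shared cytosines (adjusted exact p = 5.1e-14). Restricted to tiles identical between the genomes, its difference was 1.14 points, of opposite sign. The remaining genes of the 5 with the lowest differences were plastid RPS1 (-8.82 points, adjusted exact p = 1.2e-08, and 0.396 in identical tiles) and AT3G28500, an acidic stalk protein of the P2 type, with 2.52% in Ler-0 and 8.24% in Col-0 at shared cytosines (-5.72 points, adjusted exact p = 0.00467).

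**Figure D5:**
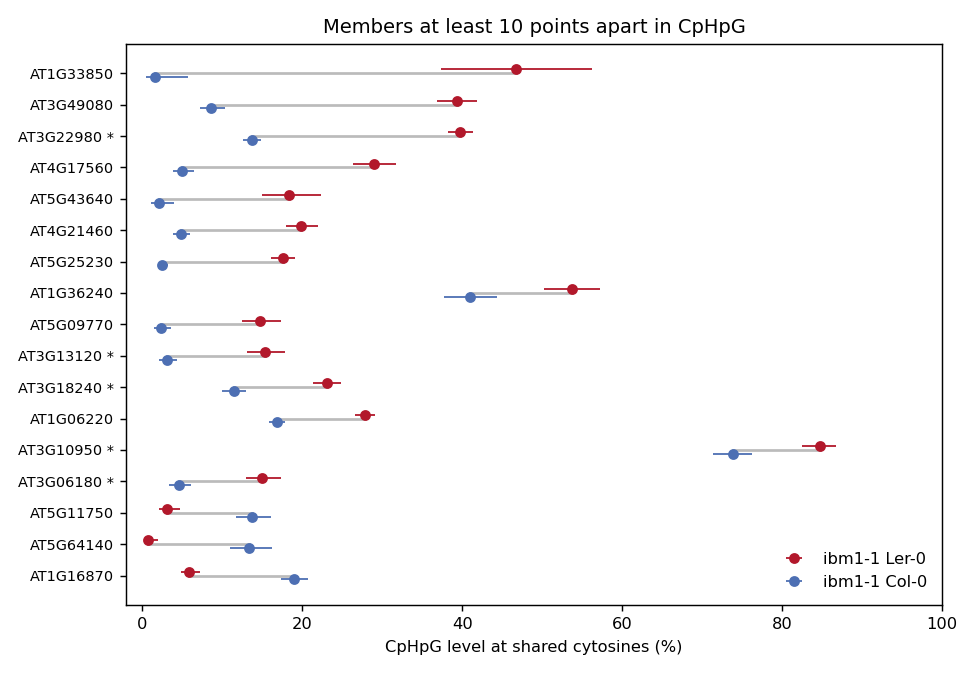
Points give the CpHpG level (%) at shared cytosines in ibm1-1 Ler-0 (red) and ibm1-1 Col-0 (blue) with 95% Wilson intervals for the 17 ribosomal protein genes at least 10 points apart, ordered by the difference, and an asterisk marks genes in the chromosome 3 stretch. The top 14 are higher in Ler-0, led by AT1G33850 with 46.7% and 1.60%, and the bottom 3 are lower.

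The stretch of chromosome 3 held 5 of the 14 genes with more CpHpG methylation in Ler-0, namely AT3G22980, AT3G10950, AT3G18240, AT3G13120 and AT3G06180. This was 5 of 41 genes compared there (12.2%, against 7.48% of all genes in the stretch). Outside it were 9 of 274 (3.28%, against 10.2%) and all 3 genes with less (1.09%, against 3.06%). Differences were therefore found both inside and outside the stretch.

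CpG methylation itself was present in one library and not the other in some genes, here named after their values were seen. At shared cytosines, 47 genes had at least 10% CpG in both libraries (14.9%, against 38.9% of all genes). In 11 it reached 10% in Ler-0 but stayed below 5% in Col-0 (3.49%, against 2.23%), and in 8 the reverse (2.54%, against 3.89%). RPS15a, of the small subunit, had one copy of each kind, but these are distant copies. AT2G19720 and AT2G39590 are 61.6% identical over 380 coding bases, whereas AT2G19720 and AT4G29430 are 86.2% identical over 390. AT2G19720 had 45.5% CpG in Ler-0 (41.2 to 49.8%) and 0.202% in Col-0 (0.0356 to 1.13%), whereas AT2G39590 had 3.30% in Ler-0 (1.13 to 9.25%) and 46.0% in Col-0 (35.9 to 56.4%). AT2G39590 stayed at background in CpHpG, with 2.91% and 1.97%, and AT2G19720 had 8.33% in Ler-0 and 4.28% in Col-0 at shared cytosines. The RPS15a copy AT3G46040 was methylated in both, at 11.6% in Ler-0 and 10.1% in Col-0. Among the others were RPL11 copy AT4G18730, with 1.69% CpG in Ler-0 and 26.5% in Col-0, RPL23 copy AT2G33370, with 3.55% and 21.1%, and RPL13 copy AT5G23900, with 17.6% and 2.44%. In all 3 of these, CpHpG at shared cytosines was 3.71% or less in Ler-0 and 3.26% or less in Col-0.

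Other genes of translation were read beside the ribosomal proteins, from lists by description or gene code. CpHpG methylation of at least 5% was found in 22 of 52 genes of initiation factors in Ler-0 (42.3%, against 32.0% of all genes) and 14 of 54 in Col-0 (25.9%, against 27.3%). It was found in 36.8% and 33.8% of 68 genes of elongation factors, which include transcription elongation factors and 11 of the ribosomal protein genes. In tRNA synthetases and ligases, which include 3 genes described as ribosomal proteins, the shares were 56.5% and 48.4%. In the 22 genes listed for ribosome biogenesis, among them TOR (AT1G50030), they were 40.9% and 36.4%. The ribosomal protein genes, at 12.1% and 6.65%, were the lowest of these sets, and also the shortest, with a median of 1565 bp against 2503 to 3339 bp. The highest in Col-0 among initiation factors was EIF4G (AT3G60240), the scaffold of the cap-binding complex, with 72.2% CpG and 61.3% CpHpG in Ler-0 and 71.5% and 57.7% in Col-0. Among biogenesis factors it was midasin-like AT1G67120, an ATPase that acts on the large subunit, with 54.1% CpHpG in Ler-0 and 30.3% in Col-0.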

How the data were processed

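Reads were trimmed with Trimmomatic and aligned with Bismark to TAIR10 for Col-0 and to a PacBio assembly for Ler-0, per the labels and the methods of the study, and duplicates were collapsed. Tool versions were not given in the sources consulted. The authors deposited, for each cytosine, raw counts of methylated and unmethylated calls, without normalization. There were 313387873 calls over 47623059 cytosines in Ler-0 and 371653818 over 43080083 in Col-0.

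The Col-0 positions matched the reference genome used here at all but 0 to 6 cytosines per chromosome. The Ler-0 sequence was rebuilt from its cytosines, and bwa 0.7.19 was used to align 238291 Col-0 tiles (500 bp), of which 212249 were placed once. Levels are methylated calls over all calls of a gene by context. Fisher's exact test was computed with scipy 1.17.1 in Python 3.11.15, Wilson intervals with numpy 2.4.6, and figures with matplotlib 3.10.9. Scripts were tested on simulated data.

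Genes were named when among the 10 highest in Col-0 CpHpG or CpG, the 5 largest and 5 smallest differences, those with at least 5% CpHpH, other copies of the first 5 CpHpG genes' families, and the 2 on each side of a limit. Any other gene named was chosen after its values were seen. The members, classes and lists were chosen with earlier results of these data known, and the classes were assigned by hand from descriptions. Alternatives included other read minimums, limits, non-conversion taken off, identical tiles and the chromosome 3 stretch. Wild-type and other mutant libraries were not analysed here.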

Additional observations from a re-analysis of the deposited data

How the results depend on the processing

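The count of ribosomal protein genes with at least 10% CpG in Col-0 (63) was 37 of 171 with a mean of at least 8 reads and 35 at a limit of 20%. For CpHpG of at least 5%, the count in Ler-0 (38) was 16 of 54 with at least 8 reads and 4 at a limit of 50%, and that in Col-0 (22) was 12 at a limit of 10% and 1 at 50%. With non-conversion taken off, the CpHpG counts were 30 in Ler-0 and 15 in Col-0, and the CpG count in Col-0 was 60. The 14 genes with more CpHpG methylation in Ler-0 became 9 of 56 with at least 8 reads in both libraries, 9 of 179 in identical tiles, 25 at a difference of 5 points, 4 at 20 points and 9 without the chromosome 3 stretch. With at least 8 reads the share in all genes moved as well, to 58.1% for CpHpG in Ler-0 and 22.3% for genes with more. The 3 genes with less became 0, 1, 5 and 0 under the first 4 of these. In identical tiles AT5G11750 differed by 1.14 points and AT5G30510 by 0.396 points, against negative values over all shared cytosines, and the cause was not tested. With at least 10 reads, CpCpG sites methylated only at the internal cytosine made up 8.38% in Ler-0. With an external level of 50%, sites with both cytosines methylated were 1.14% in Ler-0 and 0.768% in Col-0, internal-only sites 7.17% and 7%, and the share with a methylated external cytosine among those with a methylated internal one 13.7% and 9.88%. Smaller and larger thresholds change these counts by their construction. No paired analysis was possible because each ecotype has 1 library. Depth limits single sites, as 0% of 10 calls at the internal cytosine of the AT5G43640 site in Col-0 leaves an interval up to 27.8%.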

Other observations

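The median CpHpG level lay above the median CpG level in the ribosomal protein genes (2.39% and 1.67% in Ler-0, 2.22% and 1.75% in Col-0), as did the chloroplast background (2.34% and 1.40% in Ler-0, 2.25% and 1.42% in Col-0). Well above that background, and picked after their values were seen, were AT5G25230 in Ler-0 and AT3G28500 in Col-0. AT5G25230, a GTPase of the elongation factor G type with the domain name only, had 18.6% CpHpG (17.2 to 20.2%) and 10.2% CpG (8.53 to 12.1%) in Ler-0, and 2.32% and 1.05% in Col-0. In Ler-0 its CpApG cytosines were at 23.0%, CpTpG at 16.0% and CpCpG at 4.33%. The P2 stalk protein gene AT3G28500 had 2.56% CpHpG and 1.65% CpG in Ler-0, and 7.81% and 0.265% in Col-0.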
